A study of Rattus norvegicus with 9 samples.

Results

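The 8 genes described here are markers of the progenitor subtypes of adipose stroma: Dpp4 and Pi16 for interstitial progenitors, Icam1 for committed preadipocytes, and F3, Clec11a, Fmo2, Mgp, and Cd9 for adipogenesis-regulatory cells. They were taken by their symbols from the 35362 genes of the count table, and all 8 passed the filter on low counts together with the 14770 genes tested. The 3 groups were ASCs (adipose-derived mesenchymal stem cells) of male Sprague Dawley rats aged 6 weeks, grown from groin subcutaneous fat (SASCs), perirenal fat (PASCs), and epididymal fat (EASCs), with 3 samples in each group. All cells came from collagenase-digested fat by adherence to plastic, were harvested at passage 3, and carried no transgene or treatment. No sort for any of these surface markers was described, so each sample was a mixed culture, and for every gene below fewer cells of a type and less RNA per cell cannot be told apart. RNA was taken from single wells, for which the methods give 6 replicates per group where the table holds 3. Whether the wells of a group held cells of different animals is not given in the sources, so p-values measure only the spread between these samples, which may be technical.

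Fat stroma holds fibroblast-like progenitors at several stages. DPP4-positive cells lie in the fluid-filled interstitium around the lobules, keep many fates open, and give rise to ICAM1-positive preadipocytes, which lie near vessels and are closer to becoming fat cells. Adipogenesis-regulatory cells (Aregs) carry F3, the coagulation receptor also named tissue factor or CD142, and were described as cells that restrain the conversion of their neighbors into adipocytes. These subtypes were defined largely in fresh mouse and human fat, and a marker level in cultured rat cells does not by itself count cells of a subtype.

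Promoter sequences of 6 of the 8 genes matched the RefSeq table of build GRCr8, which covers 250 bases before and 50 bases after each gene's start. Those of Dpp4 and Pi16 are shown because, of these markers of the same subtype, Dpp4 was called lower than in SASCs and Pi16 was not called, and that of Icam1 because it had opposite signs in the 2 comparisons with SASCs. Capitals mark matches to GGAAATTCC, a sequence of the NF-kB type, to TATAAA, the TATA box, and to GGGCGG, the GC box, each searched on both strands. The motifs were chosen after the sequences had been seen.
Dpp4 (chr3:67452373-67452672, minus strand): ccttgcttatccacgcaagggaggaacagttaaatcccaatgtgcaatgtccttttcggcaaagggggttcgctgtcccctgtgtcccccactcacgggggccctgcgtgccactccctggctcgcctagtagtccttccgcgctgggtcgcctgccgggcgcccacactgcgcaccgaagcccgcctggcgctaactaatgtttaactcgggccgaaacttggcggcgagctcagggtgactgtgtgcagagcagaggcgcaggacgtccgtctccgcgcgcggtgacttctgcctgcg
Pi16 (chr20:7377703-7378002, plus strand): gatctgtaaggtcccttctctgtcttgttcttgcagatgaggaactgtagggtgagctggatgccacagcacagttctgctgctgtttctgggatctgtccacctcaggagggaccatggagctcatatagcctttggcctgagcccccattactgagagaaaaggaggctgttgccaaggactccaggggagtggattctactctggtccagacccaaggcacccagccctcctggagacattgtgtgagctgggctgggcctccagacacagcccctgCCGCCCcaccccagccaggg
Icam1 (chr8:27829595-27829894, plus strand): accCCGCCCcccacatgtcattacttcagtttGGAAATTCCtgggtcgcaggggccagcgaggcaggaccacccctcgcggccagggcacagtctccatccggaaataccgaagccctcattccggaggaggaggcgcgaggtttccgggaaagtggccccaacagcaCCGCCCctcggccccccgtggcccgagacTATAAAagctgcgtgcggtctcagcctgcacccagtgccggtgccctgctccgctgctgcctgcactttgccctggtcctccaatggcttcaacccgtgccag

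GGAAATTCC was present in 0.332% of the 33469 promoters of this length and, among the members, in Icam1, where it began 218 bases before the start. TATAAA was present in 14.2% of promoters and in Icam1, beginning 53 bases before its start. GGGCGG was present in 33.1% of promoters, and it occurred 2 times in Icam1, 3 times in Cd9, and in Pi16 and Clec11a. None of the 3 motifs was found in the windows of Dpp4 and Fmo2. GC content was 64.0% for Dpp4, 58.3% for Pi16, and 65.3% for Icam1.

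The samples held 17591916 to 30299032 counts. Levels are given as CPM (counts relative to the depth of the sample after TMM, a scaling that sets the bulk of genes equal between samples), and 3 counts corresponded to 0.1043 to 0.1589 CPM. Overlap of groups in level is judged on these values and was not examined under other scalings. How many of all genes tested separate the groups in this way was not counted. The 7 ribosomal RNA genes took between 10.38 and 15.49% of the counts of SASCs, between 22.37 and 32.93% for PASCs, and between 15.88 and 40.33% for EASCs, so rRNA content moved with the groups. With these genes removed before the fit, 5, 3, and 2 members were called in EASCs against SASCs, PASCs against SASCs, and EASCs against PASCs, and Dpp4, Mgp, and Cd9 kept every call. When total counts replaced TMM, the median log2 fold change of all genes was -0.39 for EASCs and -0.333 for PASCs against SASCs, compared with 0.006 and -0.008 under TMM. With that scaling the share of calls that were higher was 28.3% instead of 48.8% in EASCs and 28.5% instead of 44.7% in PASCs. A gene was called changed (a DEG, differentially expressed gene) at a fold change above 2 with an adjusted p-value under 0.05 in edgeR's quasi-likelihood test, and rose and fell are used of such calls.

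Of the 8 markers, 1 was upregulated (Clec11a) and 4 were downregulated (Dpp4, Fmo2, Mgp, and Cd9) in EASCs compared with SASCs. Over all genes tested in that comparison, 13.5% were called higher and 14.2% were called lower. In PASCs compared with SASCs, 1 marker was upregulated (Clec11a) and 2 were downregulated (Dpp4 and Mgp), where 12.0% of all genes were called higher and 14.9% were called lower. Between EASCs and PASCs, 1 marker was higher (Mgp) and 1 was lower (Cd9) in EASCs, where 5.19% of all genes were called higher and 2.2% were called lower. The 2 comparisons with SASCs share the same 3 SASCs samples and are therefore not independent of each other. Of the interstitial pair Dpp4 alone was called, and the calls of the Areg markers went in both directions.

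**Figure D1:**
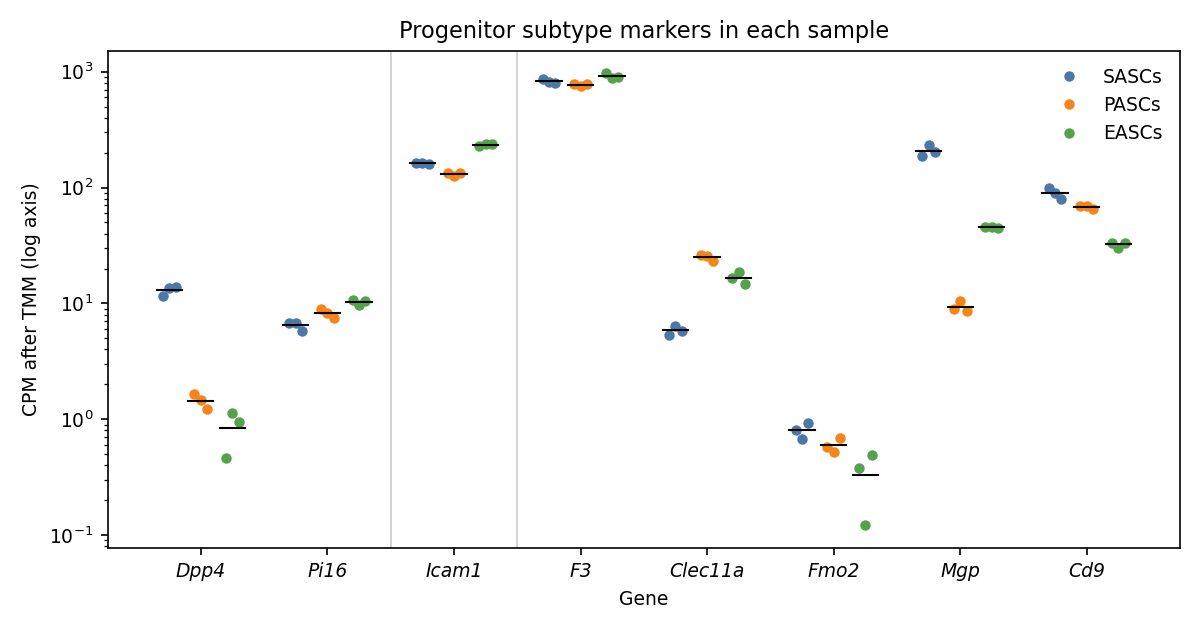
Level of each marker in each of the 9 samples, in CPM after TMM on a log axis; points are samples, colors are groups, short lines are group means, and vertical lines separate the 3 subtypes. Dpp4 and Mgp were highest in SASCs, Clec11a was highest in PASCs, and F3 stayed between 751.7 and 967.8 CPM in all samples.

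**Figure D2:**
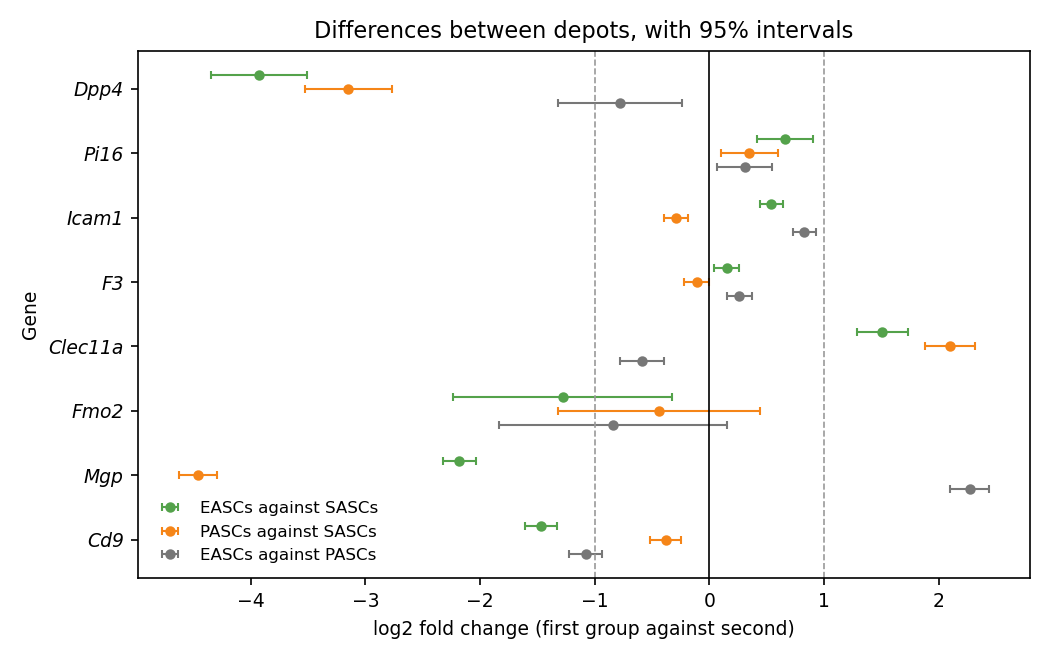
Log2 fold change of each marker in the 3 comparisons under TMM, with 95% intervals as bars; dashed lines mark a fold change of 2. The intervals of Fmo2 in PASCs against SASCs (-1.31 to 0.44) and in EASCs against PASCs (-1.84 to 0.15) span 0, and the sign of F3 in EASCs against SASCs turns when total counts replace TMM.

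Dpp4 encodes a membrane serine protease that removes dipeptides from chemokines and incretins, and its product is the surface antigen used to isolate interstitial progenitors. It lies at chr3:48291055-48381936 on the minus strand of rn6, and no other gene of the table overlaps it. In SASCs its levels were 11.61, 13.5, and 13.96 CPM. They were 1.645, 1.458, and 1.218 CPM in PASCs and 0.4605, 1.135, and 0.9394 CPM in EASCs. Every SASCs sample lay above every sample of the other groups, and every PASCs sample lay above every EASCs sample. Dpp4 was downregulated by 3.93 ± 0.213 (SE) on the log2 scale in EASCs, a 15.3-fold lower level with an adjusted p of 2.53e-15 in edgeR. In PASCs the log2 fold change was -3.15 ± 0.195 (edgeR adjusted p = 4.97e-14), an 8.89-fold lower level. With limma on log2(CPM + 1) these log2 fold changes were -2.94 and -2.52, where the added 1 CPM lies near the levels of both visceral groups. The EASCs values rested on 11, 28, and 21 counts and the PASCs values on 43, 39, and 23 counts. EASCs against PASCs gave -0.78 ± 0.275 (edgeR adjusted p = 0.0314), below the fold threshold. That difference was called without EASCs replicate 2, at -1.07 with an edgeR adjusted p of 0.0112, and without EASCs replicate 1 its adjusted p was 0.194.

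Pi16 encodes a secreted or membrane-attached protein of the CAP domain family and marks fibroblasts of the adventitia and interstitium in many tissues. It lies at chr20:6923173-6932786 on the plus strand, where Grm4, on the other strand, held 0 to 8 counts per sample. Its levels were 6.814, 6.792, and 5.809 CPM in SASCs, 8.875, 8.299, and 7.52 CPM in PASCs, and 10.68, 9.647, and 10.47 CPM in EASCs. No samples of any 2 groups overlapped, and the order of the groups was the reverse of that of Dpp4. The log2 difference from SASCs was 0.66 ± 0.125 in EASCs (edgeR adjusted p = 4.07e-05) and 0.35 ± 0.127 in PASCs (edgeR adjusted p = 0.0179), and neither reached a fold change of 2. EASCs and PASCs differed by 0.31 with an interval of 0.07 to 0.55 (edgeR adjusted p = 0.0534). With total counts in place of TMM the 2 differences from SASCs were 0.26 and 0.02, with adjusted p of 0.254 and 0.948 in edgeR.

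The ratio of Pi16 to Dpp4 within a sample does not depend on the scaling between samples. Per kilobase of transcript it was 1.31, 1.13, and 0.931 in SASCs, so both markers were at a similar level there. It was 12.1, 12.7, and 13.8 in PASCs and 51.8, 19.0, and 24.9 in EASCs. The groups did not overlap, and the spread was widest in EASCs (31.9 ± 17.48, SD, n = 3), where Dpp4 had its fewest counts. In level per kilobase, Dpp4 stood at percentile 36.5 of the genes tested in SASCs, 12.3 in PASCs, and 7.21 in EASCs. Pi16 stood at percentiles 38.4, 43.8, and 48.2 in the same order.

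**Figure D3:**
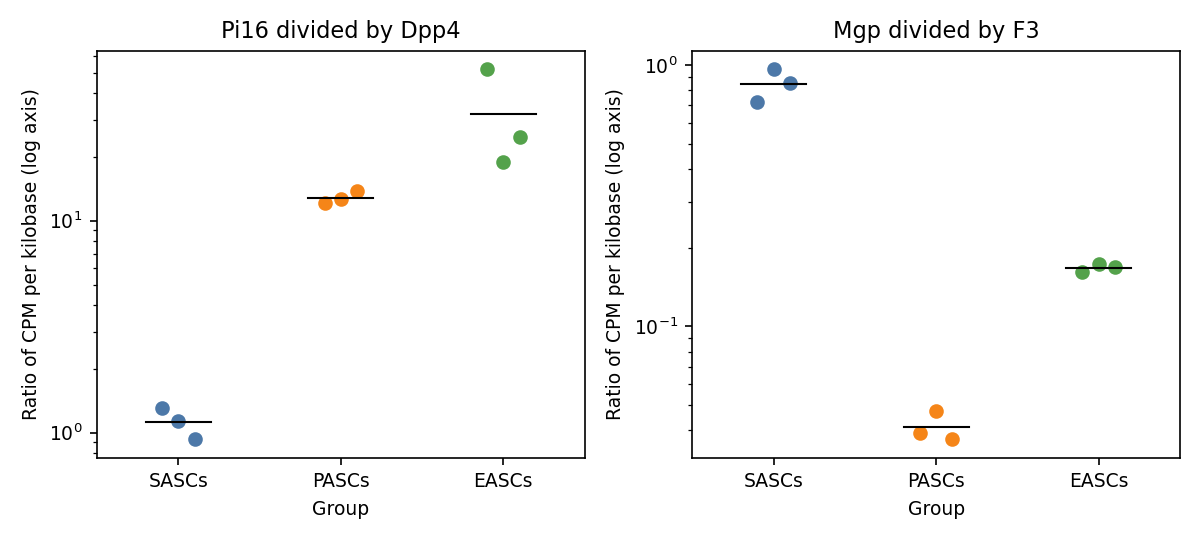
Ratio of CPM per kilobase of Pi16 to Dpp4 (left) and of Mgp to F3 (right) in each sample, on log axes; points are samples and lines are group means. Pi16 to Dpp4 ran from 0.931 in a SASCs sample to 51.8 in an EASCs sample, and Mgp to F3 was lowest in PASCs, at 0.037 to 0.0473.

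Icam1 encodes an adhesion molecule of the immunoglobulin superfamily that binds leukocyte integrins, is induced by NF-kB, and is the surface marker of committed preadipocytes. It lies at chr8:22035287-22047049 on the plus strand, overlapped by no other gene of the table. Its levels were 163.5, 163.2, and 158.2 CPM in SASCs, 134.5, 126.4, and 134.5 CPM in PASCs, and 228.0, 237.1, and 238.4 CPM in EASCs. The spread within groups was small (SD of 2.95, 4.646, and 5.662 CPM), and no groups overlapped. Against SASCs the log2 fold change was 0.54 ± 0.0516 in EASCs (edgeR adjusted p = 5.17e-10) and -0.29 ± 0.0521 in PASCs (edgeR adjusted p = 1.6e-05). EASCs and PASCs differed by 0.83 ± 0.052, a 1.78-fold difference with an adjusted p of 4.78e-13 in edgeR. Each of the 3 differences passed the adjusted p-value and not the fold threshold. With total counts in place of TMM, EASCs differed from SASCs by 0.14 (edgeR adjusted p = 0.450), and PASCs by -0.62.

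F3 encodes tissue factor, the receptor of coagulation factor VII, and is the antigen by which Aregs were isolated. It lies at chr2:225310686-225322281 on the plus strand with no overlapping gene. Its levels were 866.4, 810.4, and 806.3 CPM in SASCs, 776.7, 751.7, and 778.5 CPM in PASCs, and 967.8, 888.3, and 898.0 CPM in EASCs. Groups did not overlap under TMM, although the group means spanned only 768.9 ± 14.97 to 918.0 ± 43.41 CPM (SD, n = 3). It was the most abundant member per kilobase in all 3 groups, at ranks 109, 135, and 115 of the genes tested in SASCs, PASCs, and EASCs. EASCs differed from SASCs by 0.15 ± 0.0552 on the log2 scale (edgeR adjusted p = 0.0186), and this sign turned to -0.24 (edgeR adjusted p = 0.186) when total counts replaced TMM. PASCs differed from SASCs by -0.11 ± 0.0552 (edgeR adjusted p = 0.089), with an interval of -0.21 to 0.0. EASCs against PASCs gave 0.26 ± 0.0552 (edgeR adjusted p = 0.000648).

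Clec11a encodes osteolectin, a secreted C-type lectin growth factor that acts on skeletal progenitors. It lies at chr1:100290374-100293515 on the minus strand, with no overlapping gene. Its levels were 5.354, 6.367, and 5.809 CPM in SASCs, 26.17, 25.53, and 23.25 CPM in PASCs, and 16.54, 18.48, and 14.63 CPM in EASCs. No groups overlapped, and PASCs were highest. It was upregulated 4.29-fold in PASCs (log2 fold change 2.1 ± 0.111, edgeR adjusted p = 1.51e-15) and 2.84-fold in EASCs (1.51 ± 0.114, edgeR adjusted p = 3.52e-12). EASCs against PASCs gave -0.59 ± 0.0988 (edgeR adjusted p = 2.67e-05), below the fold threshold. Clec11a was the single member called higher than in SASCs in either visceral group.

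Mgp encodes matrix Gla protein, a small vitamin K-dependent inhibitor of calcification in vessel walls and cartilage. It lies at chr4:170856783-170860105 on the minus strand with no overlapping gene. Its levels were 185.7, 230.9, and 203.4 CPM in SASCs, 8.99, 10.54, and 8.526 CPM in PASCs, and 46.1, 45.6, and 44.73 CPM in EASCs. The 3 groups were far apart, with PASCs lowest and EASCs between. Mgp was downregulated 21.9-fold in PASCs (log2 fold change -4.46 ± 0.0856, edgeR adjusted p = 3.09e-25). It was downregulated 4.54-fold in EASCs (-2.18 ± 0.0719, edgeR adjusted p = 3.28e-20). EASCs exceeded PASCs 4.83-fold (2.27 ± 0.0878, edgeR adjusted p = 1.63e-17). Mgp had the largest fold change among the members in PASCs against SASCs and in EASCs against PASCs, and it fell from rank 129 of the genes tested per kilobase in SASCs to rank 3021 in PASCs and rank 612 in EASCs.

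The ratio of Mgp to F3, both markers of Aregs, was 0.724, 0.962, and 0.852 per kilobase in SASCs. It was 0.0391, 0.0473, and 0.037 in PASCs and 0.161, 0.173, and 0.168 in EASCs. The 2 Areg markers were thus at a similar level in SASCs and far apart in the other groups, independently of the scaling between samples.

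Cd9 encodes a tetraspanin, a 4-pass membrane protein that organizes adhesion molecules and is abundant on exosomes. It lies at chr4:157977163-158010091 on the minus strand, where the overlapping Prr21 held 0 counts. Its levels were 98.31, 89.35, and 79.13 CPM in SASCs, 69.55, 69.46, and 65.72 CPM in PASCs, and 33.16, 30.32, and 33.33 CPM in EASCs. The order was SASCs, PASCs, EASCs with no overlap. Cd9 was downregulated 2.76-fold in EASCs compared with SASCs (log2 fold change -1.47 ± 0.0719, edgeR adjusted p = 2.84e-16). EASCs against PASCs gave -1.08 ± 0.0724 (edgeR adjusted p = 1.97e-12), a 2.12-fold difference just past the threshold. A test of whether that fold exceeds 2 gave an adjusted p of 0.840 (glmTreat of edgeR). PASCs differed from SASCs by -0.38 ± 0.0682 (edgeR adjusted p = 1.73e-05), below the fold threshold.

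Fmo2 belongs to the flavin-containing monooxygenase genes, a family whose enzymes oxidize drugs and other compounds at nitrogen or sulfur. It lies at chr13:80752552-80775338 on the minus strand, and the 2 uncharacterized genes that overlap it held at most 2 counts. It was close to the counting limit, where SASCs samples had 23, 16, and 19 counts, PASCs samples 15, 14, and 13, and EASCs samples 9, 3, and 11. These corresponded to 0.7996, 0.6792, and 0.9275 CPM in SASCs, 0.5738, 0.5234, and 0.6884 CPM in PASCs, and 0.3768, 0.1216, and 0.4921 CPM in EASCs. SASCs and PASCs overlapped, while all EASCs samples lay below the others. EASCs against SASCs gave -1.28 ± 0.488 (edgeR adjusted p = 0.0223), a 2.43-fold lower level. That call was lost in edgeR without EASCs replicate 2 (-0.87, adjusted p = 0.149), without SASCs replicate 3 (-1.17, adjusted p = 0.0693), and without SASCs replicate 1 (adjusted p = 0.0525). It was also lost with limma on log2(CPM + 1), where the fold was below 2, and in the test of a fold above 2. PASCs against SASCs gave -0.44 with an interval of -1.31 to 0.44 (edgeR adjusted p = 0.394), so a difference between those groups was not detectable at this depth.

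Across the 9 samples the members did not move as blocks of a subtype. Pearson's r of log2(CPM + 1), which here describes 3 groups of 3 more than 9 independent points, was -0.88 between Dpp4 and Pi16. Among the Areg markers it was -0.96 between Clec11a and Mgp, 0.83 between Fmo2 and Cd9, and 0.24 between Mgp and Cd9. Icam1 and F3, markers of different subtypes, had an r of 0.92.

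The genes most like each member were named by the highest r of log2(CPM + 1) over the 9 samples, among tested genes with a mean of at least 1 CPM. They were LOC103691165 and Rgl1 for Dpp4 (0.9966 and 0.9965) and Fabp3 and Ell3 for Pi16 (0.9876 and 0.9866). For Icam1 they were Cdh2 and Serinc3 (0.9904 and 0.9878), and for F3 LOC103694158 and Tp53i11 (0.9399 and 0.939). For Clec11a they were Irf2bp1 and Mcm2 (0.9982 and 0.9981), and for Mgp Csf2rb and Ctsh (0.9977 and 0.9976). For Cd9 they were Twist1 and Wisp2 (0.9945 and 0.9902), and for Fmo2 Mad2l1bp and Zfp667 (0.9671 and 0.9657). F3, which differed least between groups, had the lowest of these best matches.

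The list of interstitial progenitor markers held calls in both directions. Of the 12 tested of 17 found in the table, Dpp4 and Pi16 included, 2 rose and 3 fell in EASCs and 3 rose and 3 fell in PASCs. Without these members, 2 rose and 2 fell of 10 in EASCs, and 3 rose and 2 fell in PASCs. Over all genes tested, 13.5% were called higher and 14.2% lower in EASCs, and 12.0% and 14.9% in PASCs. Anxa3, an annexin, rose from 2.76 ± 0.4149 CPM in SASCs to 29.66 ± 0.9537 in PASCs (log2 fold change 3.41) and 28.96 ± 3.731 in EASCs (3.38). Cd55, which protects cells from complement, rose from 287.3 ± 11.69 to 1255 ± 50.19 CPM in PASCs (2.13), while 526.6 ± 9.776 CPM in EASCs (0.87) stayed below the fold threshold. Pcsk6, a proprotein convertase, fell from 89.11 ± 1.855 CPM, with 15.99 ± 0.9903 left in PASCs (-2.48) and 29.24 ± 1.953 in EASCs (-1.61). Il13ra1, a receptor chain of IL-13 and IL-4, fell in both (-1.56 in PASCs and -1.38 in EASCs). The median log2 fold change of the list was 0.15 in EASCs and -0.06 in PASCs, beside medians of 0.006 and -0.008 over all genes. The list's 5 calls in EASCs became 9 with DESeq2 and 8 with no filter on low counts, and its 6 calls in PASCs became 10 with DESeq2. Wnt2, Bmp7, Efhd1, Opcml, and Cd248 were too low to be tested, at 0 to 10 counts.

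No marker of committed preadipocytes was called higher in the visceral groups. Of 17 tested, Icam1 included, 9 were called lower and 0 higher in EASCs, and 9 lower and 0 higher in PASCs, with medians of -1.47 and -1.03. Lpl, which releases fatty acids from lipoproteins, fell from 1722 ± 36.33 CPM in SASCs to 115.4 ± 15.88 in PASCs (-3.9) and 112.1 ± 2.585 in EASCs (-3.94). Cxcl14, a chemokine, fell from 51.05 ± 1.443 CPM, with 7.308 ± 1.475 left in PASCs (-2.81) and 3.071 ± 0.7108 in EASCs (-4.05). Fabp4, the fatty acid carrier of fat cells, fell from 35.23 ± 3.529 to 5.689 ± 0.1434 and 3.834 ± 0.7311 CPM (-2.63 and -3.2). Ggt5, an enzyme of glutathione and leukotriene metabolism, fell in EASCs (2.858 ± 0.2946 against 37.95 ± 3.891 CPM, -3.73), while PASCs had 24.11 ± 3.059 CPM (-0.66), and EASCs were lower than PASCs (-3.07). In EASCs the 0.54 of Icam1 was the highest value of the list, although Icam1 was itself not called. Col4a1, a basement membrane collagen, had 0.2 in EASCs (edgeR adjusted p = 0.0078) and Dlk1, a marker of preadipocytes, had 0.56 in PASCs (edgeR adjusted p = 0.02), both below the fold threshold.

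Of 15 tested markers of Aregs, the 5 members included, 1 rose and 9 fell in EASCs and 2 rose and 7 fell in PASCs. Their medians were -1.47 and -0.65, the same with Inmt, at 0 counts in all PASCs and EASCs samples, set to its bound of 3 counts per library. Without the members, 0 rose and 6 fell of 10 in EASCs, and 1 rose and 6 fell in PASCs. Igf1, the insulin-like growth factor, fell from 313.2 ± 5.322 CPM in SASCs to 28.87 ± 1.906 in PASCs (-3.44) and 27.83 ± 2.883 in EASCs (-3.49). Gdf10, a ligand of the TGF-beta family, fell from 13.66 ± 0.6308 to 0.4286 ± 0.0875 CPM in PASCs (-5.01), and in EASCs it held 3, 0, and 0 counts. Cygb, a globin of stromal cells, fell in PASCs (-2.65) and in EASCs (-1.57), and EASCs exceeded PASCs (1.08), the same order of groups as Mgp. Epha3, an ephrin receptor, fell in both (-2.46 in PASCs and -2.54 in EASCs).

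**Figure D4:**
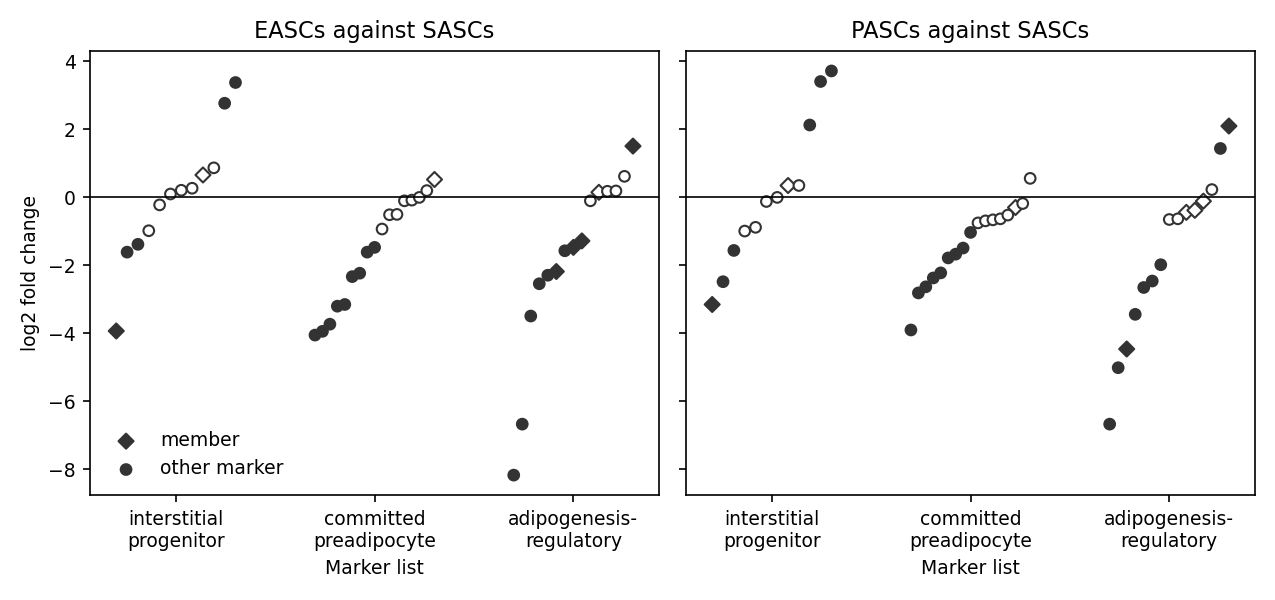
Log2 fold change under TMM of the tested genes of the 3 subtype lists in EASCs (left) and PASCs (right) against SASCs, sorted within each list; diamonds are the members, circles are other markers, and filled symbols passed both thresholds. The committed preadipocyte list has 9 filled symbols in each panel, all below 0, while Icam1 is an open diamond, and the interstitial list has filled symbols on both sides of 0.

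The families and pathways of the members were examined next, and each count includes the member itself. These counts stand beside all genes tested, of which 13.5% were called higher and 14.2% lower in EASCs. In PASCs the shares were 12.0% and 14.9%. Among DPP4-like proteases, 3 of 7 tested fell in EASCs and 2 in PASCs, and none was called higher. Dpp7, a lysosomal dipeptidase, fell in both (-1.63 in EASCs and -1.77 in PASCs), whereas Fap, the fibroblast activation protein, fell in EASCs (-1.24) and not past the threshold in PASCs (-0.55). Of the 5 CAP domain genes tested, 2 rose and 1 fell in EASCs and 2 rose and 2 fell in PASCs. Glipr1 rose from 6.502 ± 1.151 CPM to 25.96 ± 1.031 in PASCs (2.01) and 48.22 ± 2.716 in EASCs (2.9), the same order of groups as Pi16, and Glipr2 rose in both (1.39 in EASCs and 1.51 in PASCs). Crispld2, a secreted member, fell in PASCs (-1.6) and had 0.44 in EASCs. Fmo4 and Fmo5 did not pass the test in any comparison, and Fmo1 was too low to be tested.

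In the pathway of Icam1, 0 of 17 ICAM and NF-kB target genes were called higher, 5 were called lower in EASCs, and 8 were called lower in PASCs. Besides Icam1, Tnfaip2 had 0.66 in EASCs and 0.48 in PASCs (edgeR adjusted p = 1.39e-11 and 8.53e-09), below the fold threshold. The 5 calls in EASCs became 9 with total counts in place of TMM and 1 in the test of a fold above 2. The 8 calls in PASCs became 3 in that test, 4 with limma, and 5 without SASCs replicate 1. Cxcl1, a neutrophil chemokine, fell in both (-1.89 in EASCs and -2.43 in PASCs). Vcam1, the adhesion receptor for VLA-4, fell in PASCs (-1.94), had -0.65 in EASCs, and differed by 1.29 in EASCs against PASCs. Ccl20 and Traf1 fell in EASCs (-1.43 and -1.38) and in PASCs (-1.57 and -1.0).

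In the tissue factor pathway, 3 of 11 tested genes rose and 1 fell in EASCs, and 3 rose and 2 fell in PASCs. Tfpi2, an inhibitor of serine proteases including the complex of tissue factor with factor VII, rose from 3.556 ± 0.4029 CPM to 11.07 ± 0.9095 in PASCs (1.63) and 52.0 ± 2.094 in EASCs (3.86). Tfpi, the main inhibitor of tissue factor, fell in PASCs (154.7 ± 4.058 CPM in SASCs against 77.11 ± 1.912, -1.01) and had -0.44 in EASCs. Thbd, thrombomodulin, which turns thrombin to an anticoagulant, fell in EASCs (-2.37) and in PASCs (-1.53). The protease-activated receptor genes F2rl1 and F2rl2 rose in both groups, by 3.07 and 2.21 in EASCs and 4.09 and 2.03 in PASCs, from 0.2198 and 0.6494 CPM in SASCs. F7, F10, and F2, which encode factors VII and X and prothrombin, were too low to be tested, at 0 to 4 counts.

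Among tetraspanins and CD9 partners, 7 of 20 rose in EASCs and 5 rose in PASCs, and Cd9 in EASCs was the single one called lower. Tspan2 (3.37 in EASCs and 1.94 in PASCs), Tspan7 (2.86 and 1.58), and Tspan15 (2.93 and 1.5) rose in both. Hbegf, whose membrane form associates with CD9, rose as well (2.14 and 1.46). Cd81, the closest relative of Cd9, had 0.3 and 0.25, and the CD9 partners Ptgfrn (-0.36 and -0.01) and Igsf8 (-0.05 and 0.03) were not called.

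Of the genes tied to the secreted members, Itga11, the alpha chain of the osteolectin receptor, rose in EASCs (1.93) and in PASCs (1.23), as Clec11a did, although the list's 2 calls in PASCs became 1 with total counts in place of TMM. Itgb1, its beta chain, rose in EASCs (1.5) and had 0.79 in PASCs. In the matrix mineralization list, which holds Mgp, 1 of 9 rose and 2 fell in each comparison with SASCs. Enpp1, which makes the mineralization inhibitor pyrophosphate, rose from 9.285 ± 0.3302 CPM to 115.3 ± 3.421 in PASCs (3.64) and 122.4 ± 1.762 in EASCs (3.72). Gas6, a vitamin K-dependent ligand of TAM receptors, fell from 593.1 ± 10.98 to 57.19 ± 2.338 and 66.73 ± 2.456 CPM (-3.38 and -3.15). Ggcx and Vkorc1, which carry out gamma-carboxylation and vitamin K recycling, were not called in any comparison.

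The labelled cell type was checked against 12 general stromal markers, of which 1 was called higher and 3 lower in EASCs (median 0.13), and 0 higher and 4 lower in PASCs (median 0.09). Pdgfra fell from 1543 ± 37.03 CPM in SASCs to 277.9 ± 17.61 in PASCs (-2.47) and 234.6 ± 8.464 in EASCs (-2.72), and Dcn and Lum fell in both groups by 4.52 to 5.45 on the log2 scale. Eng, endoglin, rose in EASCs (59.97 ± 3.686 CPM in SASCs against 204.4 ± 7.403, 1.77), and Nt5e, the CD73 antigen, had 0.91 there. Col1a1 had 0.93 and 0.84, and Vim 0.88 and 0.92, in EASCs and PASCs, below the fold threshold. Col1a1, Col3a1, Vim, Thy1, and Cd44 were abundant in all 9 samples, while Cd34 was at 3.286 ± 0.5887 CPM in SASCs, 0.5808 ± 0.2423 in PASCs (-2.45), and 3.897 ± 0.3816 in EASCs (0.25). Stromal genes were thus present in every group, at unequal levels.

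Markers of other cell types also moved with the depots. Of 10 mesothelial genes tested, 9 rose in EASCs and 10 rose in PASCs, with summed levels of 22.11 to 23.67 CPM in SASCs that compare with 229.3 to 231.8 CPM for PASCs and 193.9 to 209.0 CPM for EASCs. Itln1, of the same list, was at 0 in every sample. The median of these genes was 3.2 in EASCs and 3.0 in PASCs, or 2.34 in PASCs with Krt18, at 0 counts in SASCs, set to its bound. Wt1, a transcription factor of mesothelium, stood at 1.913 ± 0.0881, 35.98 ± 1.223, and 53.74 ± 2.1 CPM in SASCs, PASCs, and EASCs. Of 11 pericyte and smooth muscle genes, 7 rose and 4 fell in EASCs and 6 rose and 4 fell in PASCs, and their summed level was 207.3 to 221.0, 1264 to 1312, and 3238 to 3260 CPM in the 3 groups. Acta2, smooth muscle actin, stood at 55.74 ± 1.964, 910.8 ± 15.15, and 2200 ± 28.89 CPM, and no marker of that list was at 0 in all samples. The genes called lower in both visceral groups were Notch3, Abcc9, Kcnj8, and Rgs5, which are known from pericytes, as are Cspg4 and Mcam, with Notch3 at 48.04 ± 1.806, 4.433 ± 0.5763, and 22.54 ± 2.884 CPM and Abcc9 at 28.76 ± 3.521, 2.315 ± 0.4725, and 6.915 ± 1.8 CPM. Cspg4 went the other way, at 8.3 ± 0.3512, 66.56 ± 4.747, and 50.22 ± 4.613 CPM, and Mcam rose in EASCs (1.72).

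Leukocyte genes summed to 44.5 to 46.86, 74.62 to 77.0, and 112.4 to 116.0 CPM in the same order of groups, with 7 of 8 tested higher in EASCs and 5 in PASCs. Cd3e and Ms4a1, of T and B cells, were at 0. Endothelial genes summed to 87.77 to 91.77, 41.84 to 47.7, and 61.94 to 68.08 CPM, and 7 of 9 fell and 1 rose (Tek, 1.71) in PASCs. In EASCs 1 fell and 1 rose (Tek, 1.66), or 4 were called there with total counts in place of TMM. In EASCs against PASCs, 7 of the 9 were called higher and 0 lower (median 2.1). Egfl7, at 30.08 ± 1.954, 27.68 ± 1.85, and 20.83 ± 1.37 CPM, made up much of these sums and was not called. Adipocyte genes summed to 98.97 to 103.3, 25.35 to 25.52, and 12.12 to 13.42 CPM, with 6 of 7 lower in each visceral group, and Adig was at 0. Of 6 Schwann cell genes tested, 2 rose and 2 fell in EASCs and 2 rose and 1 fell in PASCs, with summed levels of 52.72 to 56.24, 99.42 to 108.9, and 256.8 to 289.3 CPM, and Foxd3 was at 0. The part of these other cell types in the differences of Dpp4, Icam1, Clec11a, Mgp, and Cd9 was not tested.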

How the data were processed

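RNA of 9 samples, 3 each of SASCs, PASCs, and EASCs at passage 3, was analysed, with groups and replicate numbers taken from the labels. The authors trimmed paired-end reads, aligned them with TopHat, and deposited raw counts per gene. The methods name rn6 and the submitters' processing notes name rn5 and TopHat2, and the contig names of the deposited table are those of rn6. The counting tool, its use of strand, and its treatment of reads with several matches were not given in the sources used here, so overlapping genes may share reads. The authors' own tests were not used.

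Counts were filtered (filterByExpr) and scaled by TMM, and the 9 samples were fitted together with the quasi-likelihood test of edgeR 4.0.16 in R 4.3.3, with Benjamini-Hochberg adjustment over 14770 genes and no block. The study's thresholds, more than a 2-fold change at an adjusted p-value below 0.05, were kept in place of its DEGseq test. Standard errors are the fold change divided by the square root of its F statistic, and intervals are normal 95% intervals. The common biological coefficient of variation was 0.0685. Depth was 17591916 to 30299032 counts per sample. DESeq2 1.42.0, limma 3.58.1, other scalings and filters, and leaving out each sample were alternatives. The main fit was also run on simulated counts with known changes in a small share of genes in EASCs. That run does not test TMM where many genes differ, and its outcome is not reported here.

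All members were named. Per further list, at most 4 called genes with a mean of at least 1 CPM and the largest change against SASCs were named, with relatives of the members. Stromal and pericyte genes, Col4a1, Dlk1, Tnfaip2, Tfpi, Egfl7, Tek, the vitamin K enzymes, list genes too low to be tested, and genes at 0 were named outside this rule. The members and lists were chosen with earlier results of these data known.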

Additional observations from a re-analysis of the deposited data

Results flagged for a closer look

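Icam1 had opposite signs in the comparisons with SASCs, at 0.54 on the log2 scale in EASCs and -0.29 in PASCs, and EASCs set directly against PASCs gave 0.83 (edgeR adjusted p = 4.78e-13). All 3 EASCs samples lay above and all 3 PASCs samples below every SASCs sample under TMM. With total counts in place of TMM, EASCs differed from SASCs by 0.14 (edgeR adjusted p = 0.450). The cause was not tested. Single outlying samples were not flagged by a rule in groups of 3, and fits that left out each sample are described below.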

How the results depend on the processing

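Of 456 values of the members' log2 fold changes under alternatives, 444 kept their direction and whether they were called at both thresholds, 6 lost a call, 5 gained one, and 1 turned its sign, which was F3 in EASCs against SASCs (-0.24 with total counts in place of TMM). The number of members called between EASCs and PASCs went from 2 to 5 at a fold change above 1.5, and to 1 in the test against a fold change of 2 (glmTreat). The 6 lost calls were 5 of Fmo2 in EASCs against SASCs and 1 of Cd9 in EASCs against PASCs. Leaving out 1 sample at a time kept all calls of Dpp4 against SASCs, Clec11a, Mgp, and Cd9. Of 1026 counts over single lists of further genes, 59 moved by over 1.5 times, and 55 of these started from at most 5 genes. Over these lists together, 46 genes were called between EASCs and PASCs, and 25 in the test against a fold change of 2. Deviations of samples with the same replicate number correlated at -0.0301 to 0.0712, beside -0.127 to 0.0892 for different numbers. With 3 samples per group this cannot show whether samples of equal number share an animal or a batch. A fit with the replicate block gave the same number of called members (5, 3, and 2), with Dpp4 at -3.94 in EASCs against SASCs. Depth limits Fmo2 (3 to 23 counts) and Dpp4 outside SASCs (11 to 43 counts), where counting error is large. Intervals cover the spread between these samples only.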
